A study of Mus musculus with 9 samples.

Results

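Respiratory complex I, the NADH dehydrogenase of the inner mitochondrial membrane, was described through the genes of its subunits in adult mouse brain. Protein-coding genes named Ndufa, Ndufb, Ndufc, Ndufs or Ndufv plus a number were taken as the nuclear members, and mt-Nd1, mt-Nd2, mt-Nd3, mt-Nd4, mt-Nd4l, mt-Nd5 and mt-Nd6 as the mitochondrially encoded members. The rule gave 43 genes, 36 nuclear and 7 mitochondrial, of 54446 gene identifiers in the count files. A filter on low counts left 41 of the 43 (36 nuclear and 5 mitochondrial) among the 17355 genes tested. The rule used names alone and no measured value.

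Polyadenylated RNA was sequenced in paired 75-base reads from brain tissue of male mice aged 3 to 4 months. Each of the 3 groups held 3 libraries: wild type (labelled B6N), Tfap2a+/- and Tfap2b+/-, the last 2 being heterozygous knockouts of the genes for the transcription factors AP-2 alpha and AP-2 beta. The labels do not say how the alleles were made or which piece of the brain was sampled. They also leave unsaid whether each library stands for its own animal, and p-values therefore reflect the spread among these libraries. Counts in genes ran from 21946800 to 29214975 per library. Levels are given as CPM, the counts of a gene scaled to the depth of its library, for libraries 1, 2 and 3 of a group in that order. Tfap2a had 0.610, 0.263 and 0.734 CPM in wild type, against 0.445, 0.223 and 0.461 CPM in Tfap2a+/-, and the groups overlapped. Tfap2b went against its label, with 2.25, 0.715 and 14.8 CPM in wild type and 32.9, 8.90 and 5.81 CPM in the libraries labelled Tfap2b+/-, so every direction for that group refers to the label alone.

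The brain label was checked against markers. Summed markers of neurons ran from 7824 to 11566 CPM per library, while 6 genes of liver, muscle, heart and pancreas summed to 3.46 to 7.87 CPM, with Alb at 0 in 7 of the 9 libraries. Markers of brain regions and cell types varied between libraries: choroid plexus markers summed to 18.9 to 3101 CPM, oligodendrocyte markers to 2107 to 6847 CPM and striatal markers to 78.8 to 1201 CPM. In such bulk tissue fewer cells of a type and less RNA per cell cannot be told apart.

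Complex I takes electrons from NADH, passes them through a flavin and a chain of iron-sulphur clusters to ubiquinone, and uses the energy to pump protons. Its peripheral arm, which reaches into the matrix, holds the core subunits of electron transfer, all encoded in the nucleus in mammals. The core subunits of the proton-pumping membrane arm are all encoded by mitochondrial DNA, so the complex can only be built when both genomes are expressed, and accessory subunits from the nucleus surround both arms. Brain tissue relies heavily on this enzyme, and its loss is a known cause of Leigh syndrome in humans.

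Of the 7 mitochondrially encoded members, mt-Nd3 and mt-Nd4l, both small membrane-arm subunits, had almost no counts. Library by library, mt-Nd3 (ENSMUSG00000064360.1) had 3, 1 and 2 counts in wild type, 1, 1 and 0 in Tfap2a+/- and 1, 0 and 1 in the libraries labelled Tfap2b+/-. mt-Nd4l (ENSMUSG00000065947.3) had 2, 3 and 0 counts in wild type, 4, 3 and 3 in Tfap2a+/- and 2, 3 and 1 in the libraries labelled Tfap2b+/-. Both genes thus lay at or near the floor of 3 counts, which corresponds to 0.101 to 0.141 CPM in these libraries, and the filter removed both. The other 5 members had 5798 to 192560 counts in every library.

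Both genes have near-identical copies in a stretch of mitochondrial sequence on chromosome 1, annotated there as unprocessed pseudogenes on the minus strand. In the GENCODE transcripts of build GRCm38, Gm10222 (chr1:24612407-24612700) matched mt-Nd4l (chrM:9877-10173) at 294 of 294 bases compared, leaving 3 bases of the gene outside the copy. Gm28438 (chr1:24612775-24613119) matched mt-Nd3 (chrM:9459-9806) at 344 of 345 bases, and the only difference was T3C, counted from 1 at the 5′ end of the gene and written with the base of mt-Nd3 first. That base lies at position 9461 of chromosome M. The first 60 bases of each pair follow because they hold this difference, which is in capitals, and because they show how little separates the members from their copies.
mt-Nd3, chrM:9459-9518: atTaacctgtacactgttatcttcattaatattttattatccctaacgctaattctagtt
Gm28438, chr1:24613060-24613119: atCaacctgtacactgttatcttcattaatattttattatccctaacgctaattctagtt
mt-Nd4l, chrM:9877-9936: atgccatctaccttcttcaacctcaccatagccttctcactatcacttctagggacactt
Gm10222, chr1:24612641-24612700: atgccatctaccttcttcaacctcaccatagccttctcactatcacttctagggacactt

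Fragments that map to more than 1 place stand in a row of their own in the files, 5.33% to 6.20% of all fragments, and enter no gene's count. Among 75-base stretches of the annotated transcripts, 97.8% of those in mt-Nd3 and 98.7% of those in mt-Nd4l also occur in another gene. How many of the multi-mapping fragments came from these genes was not tested, so their low counts say nothing firm about their level. Gm28438 was the exception among the copies, with 419, 500 and 383 counts in wild type, 380, 295 and 311 in Tfap2a+/- and 275, 375 and 357 in the libraries labelled Tfap2b+/-. The 6 other annotated copies in that stretch, Gm10222 and Gm28439 among them, had 5 to 34 counts in any library. Mice of the substrain C57BL/6N are known to carry T3C in mt-Nd3 itself relative to C57BL/6J, the strain of the reference genome. The labels name the wild type B6N, and which base these mice carry was not tested.

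**Figure D1:**
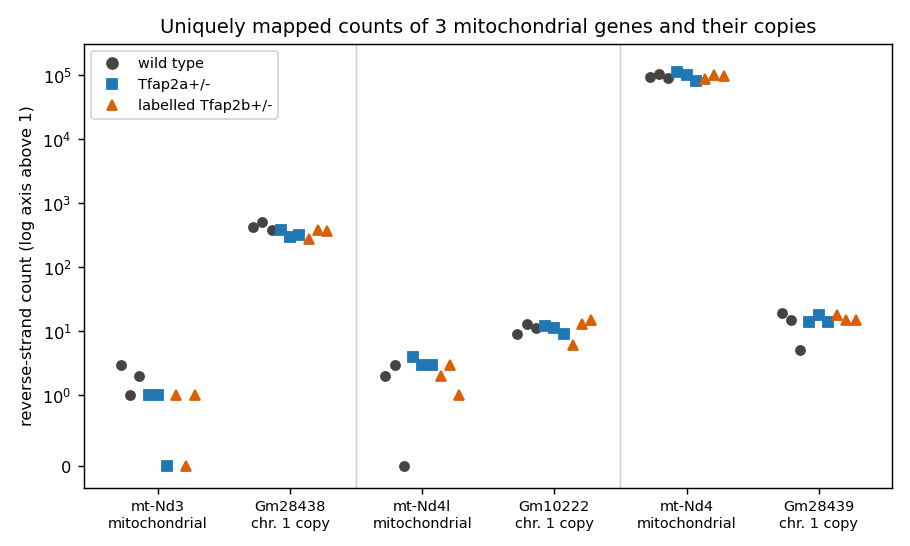
Reverse-strand counts (vertical axis, logarithmic above 1) of mt-Nd3, mt-Nd4l and mt-Nd4 and of their chromosome 1 copies, 1 point per library, by group. mt-Nd3 and mt-Nd4l lie at 0 to 4 counts, the copy Gm28438 at 275 to 500 and mt-Nd4 far above its copy.

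Expressed as CPM, Gm28438 averaged 17.8 ± 2.61 in wild type (SD, n = 3), 13.5 ± 0.726 in Tfap2a+/- and 11.9 ± 1.97 in the libraries labelled Tfap2b+/-. All 3 wild-type libraries were above all 6 others. Its log2 fold was -0.40 ± 0.15 (SE) in Tfap2a+/- and -0.57 ± 0.15 in the libraries labelled Tfap2b+/-, and neither passed edgeR's quasi-likelihood test after Benjamini-Hochberg adjustment over all genes (adjusted p = 0.999 and 0.342, unadjusted 0.0275 and 0.00429). Both comparisons use the same wild-type libraries. Gm28438 is no member of the complex I set and was looked at after its counts were seen.

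mt-Nd4, a proton-pumping subunit of the far membrane arm, is copied only in part. Gm28439 (chr1:24611535-24612410) was identical to 876 of the 1378 bases of mt-Nd4 (chrM:10167-11544), which leaves 502 bases outside the copy. Read pairs that reach from the copied part into those bases can also be placed in mt-Nd4 alone. The files gave mt-Nd4 79245 to 111386 counts per library. Divided by the whole gene this was 2681 CPM per kb on average over the 9 libraries, and divided by the 502 bases it was 7361 CPM per kb, so its rank among the mitochondrial members depends on that choice.

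With length taken as all annotated exon bases, the mitochondrially encoded members stood far above the nuclear ones. mt-Nd1, which closes the ubiquinone pocket, had the highest level at 5466 CPM per kb. It was followed by mt-Nd2 at 3879 CPM per kb and mt-Nd5 at 3617 CPM per kb, both antiporter-like proton-pumping subunits, and by mt-Nd4 at 2681 CPM per kb. mt-Nd6, the only protein gene on the other strand of mitochondrial DNA, had 547 CPM per kb. Over the 9 libraries the ranges of mt-Nd2 and mt-Nd5 overlapped, as did those of mt-Nd5 and mt-Nd4, and that of mt-Nd6 lay below the other 4.

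**Figure D2:**
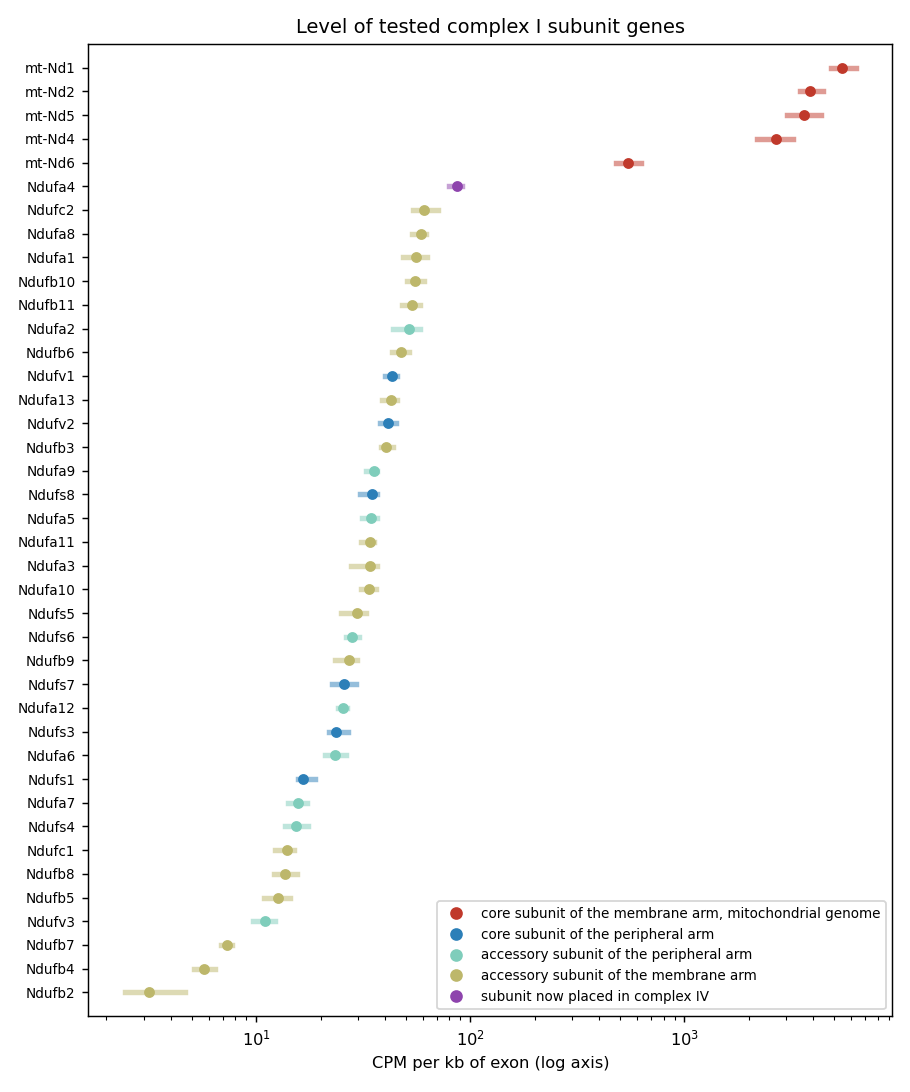
Mean level over 9 libraries (point) and lowest to highest library (bar) in CPM per kb of exon, on a logarithmic axis, for the tested members but 1, coloured by role. The 5 mitochondrial members lie at 547 to 5466 CPM per kb and the nuclear members at 3.14 to 87.2 CPM per kb.

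The 36 nuclear members ran from 3.14 to 87.2 CPM per kb of exon, with a median of 33.7, and the median of the 5 tested mitochondrial members was 107 times higher. Ndufa4 was the highest at 87.2 CPM per kb, a protein named for complex I that is now placed in complex IV. Ndufc2, a membrane-arm accessory subunit, followed at 61.1 CPM per kb and Ndufa8, a membrane-arm subunit of the intermembrane-space side, at 59.0. At the low end stood 3 membrane-arm accessory subunits, Ndufb2 at 3.14, Ndufb4 at 5.71 and Ndufb7 at 7.28 CPM per kb.

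The order depends in part on the length used. By the length of the principal transcript, an alternative added after seeing the data, Ndufa4 was again highest at 197 CPM per kb and Ndufb2 and Ndufb4 again lowest at 4.05 and 11.3. Ndufb7 moved from the low end to the middle of the order, at 52.9 CPM per kb beside a nuclear median of 51.9. The principal transcript taken for Ndufb2 is itself 4371 bases long. On this scale the median of the mitochondrial members was 69.7 times that of the nuclear members.

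The core subunits of the peripheral arm were among the more abundant members in CPM. Ndufs1, the largest subunit and a carrier of iron-sulphur clusters, averaged 134 CPM over the 9 libraries. Ndufv1, which binds NADH and the flavin, averaged 114 CPM and its partner Ndufv2 88.6 CPM. Ndufs3, Ndufs8 and Ndufs7, which link those clusters to the ubiquinone site, averaged 51.3, 45.1 and 44.0 CPM. In CPM per kb of principal transcript these 6 genes lay between 44.8 (Ndufs7) and 68.5 (Ndufv1), on both sides of the nuclear median of 51.9. Their high CPM thus went in part with transcript length.

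Neighbouring or copied genes can take or lend reads to some nuclear members. Of the 36, 20 shared no 75-base stretch with another gene's annotated transcripts, read on either strand, and 8 shared over 10% of theirs. The largest shares were 27.8% in Ndufb6 (with Smim27), 25.6% in Ndufa13 (with Tssk6) and 17.2% in Ndufb4 (mostly with Ndufb4c). Levels of these members may be less certain, but stretches shared with a gene on the opposite strand were not set apart. Ndufab1, the acyl carrier protein of the complex, and Ndufb1-ps, which the annotation types as a noncoding RNA, were not taken by the rule. They stood at 31.8 to 37.0 and 27.0 to 31.1 CPM and their groups overlapped in each comparison.

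The strand columns of the files separated the members of mitochondrial DNA further. mt-Nd1, mt-Nd2 and mt-Nd4 had 468 to 1317 counts on the opposite strand, 0.407% to 1.29% of their total over both strands. mt-Nd5 had 8691 to 12713 counts on the opposite strand, 5.06% to 6.56% of its total. For mt-Nd6 the order was the reverse, with 5798 to 8578 counts on its own strand and 48122 to 67620 on the opposite strand, 88.7% to 89.8% of its total.

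In wild-type libraries 1 to 3, mt-Nd6 had 6372, 8229 and 6457 counts on its own strand and 55557, 67054 and 51748 on the opposite strand. Tfap2a+/- libraries had 8578, 7311 and 5798 against 67620, 64635 and 48122, and libraries labelled Tfap2b+/- had 7056, 7760 and 8006 against 55986, 60884 and 63900. The opposite strand exceeded the strand of mt-Nd6 by 7.85 to 8.84 times in every library, and the groups overlapped on both strands. The heavy strand of mitochondrial DNA is known to be transcribed into a long precursor that runs, antisense, across mt-Nd6 between mt-Nd5 and mt-Cytb, and in human cells the mRNA of this subunit is known to lack a poly(A) tail. In the unstranded column of the files mt-Nd6 had 38365 to 54744 counts per library.

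**Figure D3:**
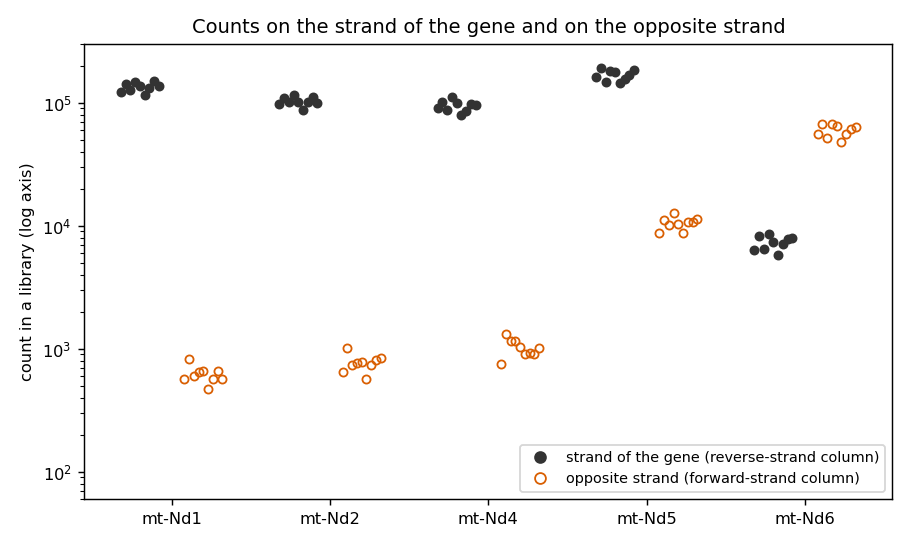
Counts of 5 mitochondrially encoded members on the strand of the gene (filled) and on the opposite strand (open), on a logarithmic axis, 1 point per library in the order wild type, Tfap2a+/- and labelled Tfap2b+/-. mt-Nd6 alone has more counts on the opposite strand, 48122 to 67620 against 5798 to 8578.

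No gene passed an adjusted p of 0.05 in Tfap2a+/- against wild type (0% of the 17355 genes tested), and no complex I member did. At an unadjusted p under 0.05 there were 0 of the 41 tested members, against 3.84% of all genes (666), and DESeq2's Wald test called 30 genes, none a member. The 36 nuclear members had a median log2 fold of -0.02, with 10 above 0 and 26 below, beside -0.01 for all genes tested. The 5 tested mitochondrial members had a median of 0.04, with 4 above 0 and 1 below, and the median was -0.04 without wild-type library 3 or without Tfap2a+/- library 2. The 3 wild-type and 3 Tfap2a+/- libraries did not overlap for 8 of the 36 nuclear members (22.2%) and for none of the 5 mitochondrial ones, against 9.17% of all genes.

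Those 8 members went both ways, 3 higher and 5 lower (13.9% lower, against 4.32% of all genes). Ndufs4, a late-joining accessory subunit whose loss gives a Leigh-like disease in mice, was at 40.5, 39.4 and 41.9 CPM in wild type, against 44.0, 47.2 and 43.2 CPM in Tfap2a+/-. Every Tfap2a+/- library was above every wild-type one, and its log2 fold of 0.14 ± 0.07 had the smallest p of the nuclear members (unadjusted p = 0.0878, edgeR adjusted p = 0.999). Ndufa8 (log2 fold 0.07) and Ndufb8 (0.06) were the other 2 that stood higher.

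Ndufa6, a peripheral-arm accessory subunit, was at 42.6, 43.5 and 43.8 CPM in wild type, against 41.5, 38.6 and 38.0 CPM in Tfap2a+/-, a log2 fold of -0.14 ± 0.09. Ndufa10 stood lower by a log2 fold of -0.09 with 113 to 117 CPM against 108 to 109 CPM. Ndufa11, Ndufc1 and Ndufv1 were the remaining 3, at -0.06, -0.06 and -0.07. The 95% interval of the log2 fold included 0 for each of these 8 members.

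Against wild type, the libraries labelled Tfap2b+/- also gave 0 called genes (0% of 17355) and 0 called members. The nuclear members had a median log2 fold of -0.06, with 6 above 0 and 30 below, beside 0.00 for all genes. The mitochondrial members lay further down, at a median of -0.18 with all 5 below 0 (-0.11 without wild-type library 1). Unadjusted p was under 0.05 for 2 of the 41 tested members, both nuclear and both lower (5.56% of the nuclear members), against 10.6% of all genes (1841), and DESeq2 called 175 genes, none a member. The groups did not overlap for 6 of the 36 nuclear members (16.7%, against 16.5% of all genes), and all 6 were lower, against 7.63% of all genes.

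Ndufa2 (ENSMUSG00000014294.4, chromosome 18), a small thioredoxin-like subunit of the peripheral arm, had the smallest p of the members. Its level was 33.2, 32.9 and 29.9 CPM in wild type, then 31.0, 31.5 and 29.1 CPM in Tfap2a+/-, with 26.6, 27.9 and 24.9 CPM in those labelled Tfap2b+/-. The last 3 were below all 6 others. The log2 fold against wild type was -0.27 (95% interval -0.45 to -0.09, unadjusted p = 0.00836, edgeR adjusted p = 0.369), so Ndufa2 was not called. Its unadjusted p in the comparison with Tfap2a+/- was 0.0305 at a log2 fold of -0.21.

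Ndufb11, an X-linked accessory subunit of the membrane arm, was at 48.6, 52.8 and 50.5 CPM in wild type against 46.9, 46.2 and 43.6 CPM in those labelled Tfap2b+/-. All 3 were lower, by a log2 fold of -0.15 ± 0.07 (unadjusted p = 0.0470, edgeR adjusted p = 0.467). Ndufb9 and Ndufb6, also membrane-arm accessory subunits, had log2 folds of -0.18 and -0.15 without overlap. Ndufc2 had -0.20 with overlapping groups. The other non-overlapping members were Ndufa7 at -0.15 and Ndufa11 at -0.09.

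The core subunits of the peripheral arm had small folds. Their 7 log2 folds in the libraries labelled Tfap2b+/- against wild type ran from -0.07 to 0.10, and the groups overlapped for all 7. Ndufs1 was the only one above 0, at 0.10 ± 0.08, with 128, 128 and 137 CPM in wild type and 152, 140 and 128 CPM in those labelled Tfap2b+/-. The value of Ndufs1 was highest in library 1 labelled Tfap2b+/-, and library 3 of that label matched the wild type.

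Ndufb2, a membrane-arm accessory subunit, had the widest spread of the nuclear members. It was at 16.4, 13.7 and 18.7 CPM in wild type, then 17.4, 16.1 and 15.4 CPM in Tfap2a+/-, with 26.3, 19.3 and 16 CPM in those labelled Tfap2b+/-. Library 1 labelled Tfap2b+/- stood apart, 1.92 times the lowest library. The fold of Ndufb2 in that group, 0.34 ± 0.18 against wild type (unadjusted p = 0.102, edgeR adjusted p = 0.530), was 0.12 once that library was left out.

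Among the mitochondrial members in this comparison, mt-Nd2 had 4611, 4080 and 3933 CPM in wild type and 3592, 3756 and 3779 CPM in those labelled Tfap2b+/-. The groups did not overlap (log2 fold -0.18 ± 0.11, unadjusted p = 0.135, edgeR adjusted p = 0.556), and mt-Nd2 was the only mitochondrial member of which this was so. mt-Nd5 had 7656, 7248 and 5722 CPM in wild type, then 6197, 7919 and 6609 CPM in Tfap2a+/-, with 5500, 5627 and 6895 CPM in those labelled Tfap2b+/-, a log2 fold of -0.19 ± 0.16 in the last group with overlap. For mt-Nd1 and mt-Nd6 the folds were -0.10 ± 0.12 and -0.08 ± 0.12.

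The direct comparison of the libraries labelled Tfap2b+/- with Tfap2a+/- gave 0 called genes as well (0% of 17355) and 0 called members. The nuclear median was -0.04, with 10 members above 0 and 26 below, and the mitochondrial median -0.17 with all 5 below 0 (-0.09 without Tfap2a+/- library 2), beside 0.01 for all genes. Unadjusted p was under 0.05 for Ndufa2, Ndufs4 and Ndufa8 (8.33% of the nuclear members, against 11.5% or 1997 of all genes), and DESeq2 called 221 genes, none a member. The groups did not overlap for 7 nuclear members (19.4%, against 17.2% of all genes), all lower in the libraries labelled Tfap2b+/-, against 8.03% of all genes. These were Ndufa2, Ndufa8, Ndufb6, Ndufb11, Ndufs3, Ndufs4 and Ndufs6.

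In the libraries labelled Tfap2b+/- Ndufs4 stood at 41.3, 40.1 and 37.1 CPM, a log2 fold of -0.18 ± 0.07 against Tfap2a+/- (unadjusted p = 0.0353, edgeR adjusted p = 0.413). Ndufa8 was at 53.8, 52.7 and 53.7 CPM in Tfap2a+/- against 49.8, 46.2 and 48.1 CPM in those labelled Tfap2b+/-, a log2 fold of -0.15 ± 0.06 (unadjusted p = 0.0388, edgeR adjusted p = 0.417). Neither member separated the libraries labelled Tfap2b+/- from wild type, where their log2 folds were -0.04 and -0.08. mt-Nd4, with 3813, 4448 and 3651 CPM in Tfap2a+/-, with 3022, 3283 and 3591 CPM in those labelled Tfap2b+/-, had a log2 fold of -0.27 ± 0.13 without overlap (unadjusted p = 0.0751, edgeR adjusted p = 0.470), and mt-Nd2 was the other mitochondrial member without overlap there, at -0.17. All 3 comparisons share libraries with one another, so their lists of members are not independent.

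**Figure D4:**
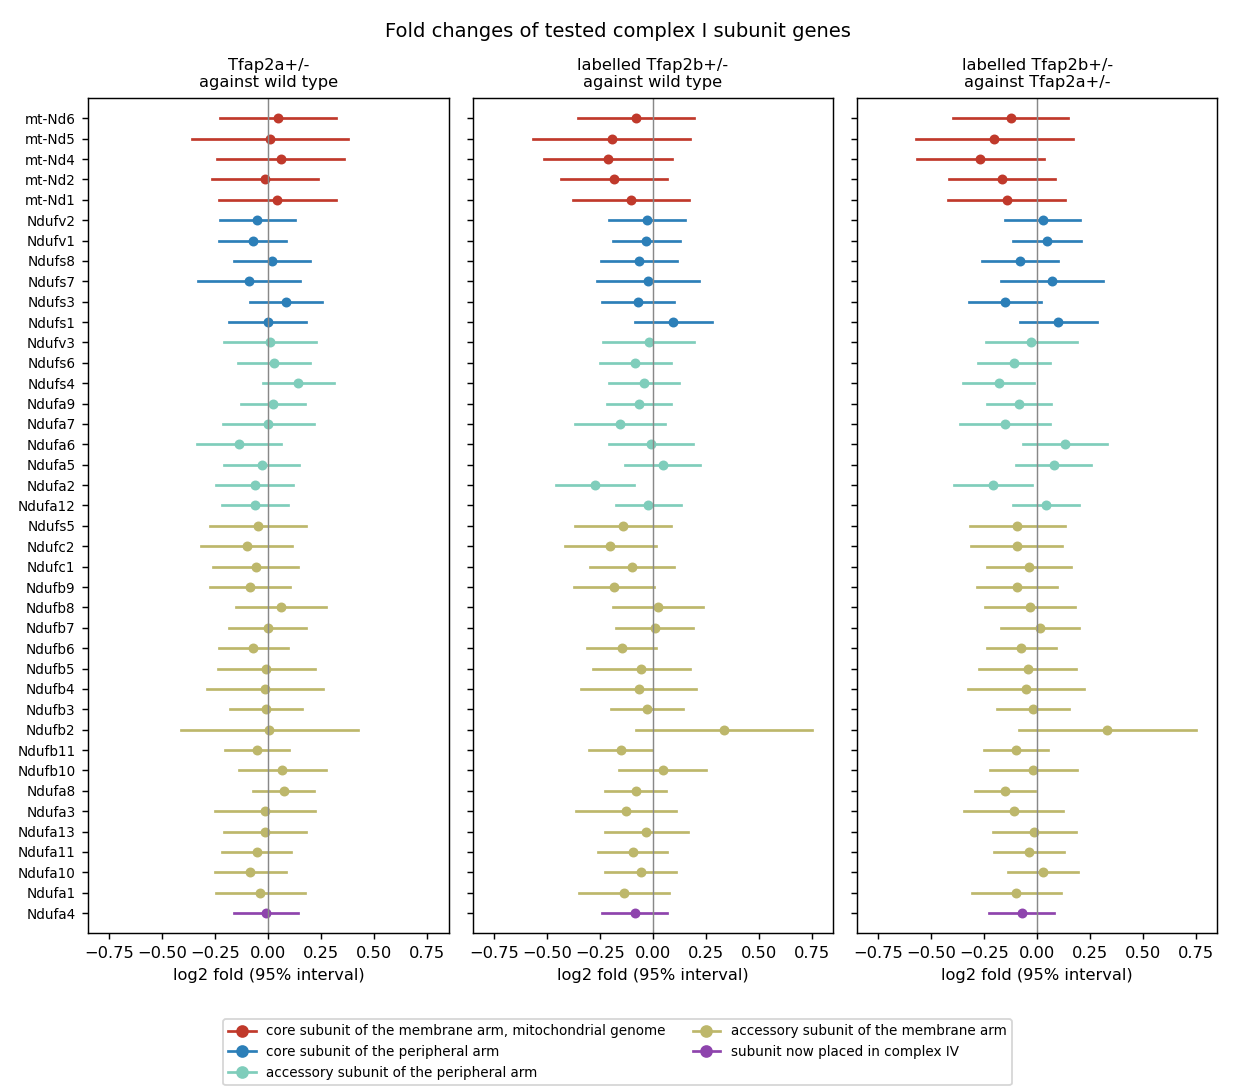
Log2 fold (point) and its 95% interval (line) of the tested members but 1 in each of the 3 comparisons, ordered and coloured by role, from the fit over all 9 libraries. In both comparisons of the libraries labelled Tfap2b+/- all 5 mitochondrial members lie below 0, and no member was called in any comparison.

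The scaling of the libraries mattered for the nuclear direction. With plain library totals in place of TMM the median of all genes in the libraries labelled Tfap2b+/- against wild type moved to 0.07, the nuclear median to 0.01 and the split to 22 members above 0 and 14 below. Relative to all genes the nuclear median was -0.06 under both scalings. The mitochondrial members remained below 0, 5 of 5, at a median of -0.11. Against Tfap2a+/- the nuclear split became 20 above and 16 below. With library totals no member had an unadjusted p under 0.05 in either comparison.

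The 2 genomes were also compared within each library. The summed nuclear members took 1896, 1882 and 1895 CPM in wild type, then 1894, 1873 and 1828 CPM in Tfap2a+/-, with 1921, 1867 and 1713 CPM in those labelled Tfap2b+/-. The summed mitochondrial members took 22572, 20745 and 18142 CPM, 19285, 23286 and 19808 CPM, and 17007, 17974 and 19686 CPM in the same order. The sum of the nuclear members thus varied little, from 1713 to 1921 CPM, and that of the mitochondrial members more, from 17007 to 23286 CPM.

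Counts of mitochondrial members over counts of nuclear members, a ratio free of library scaling, were 11.9, 11.0 and 9.58 in wild type, 10.2, 12.4 and 10.8 in Tfap2a+/- and 8.85, 9.63 and 11.5 in the libraries labelled Tfap2b+/-. Multi-mapping fragments enter neither count, and 61.5% of the 75-base stretches of mt-Nd4 also occur in another gene. The part of such fragments in the ratio was not tested. On the log2 scale the means were 3.43 ± 0.16 in wild type, 3.47 ± 0.15 in Tfap2a+/- and 3.31 ± 0.19 in the libraries labelled Tfap2b+/- (SD, n = 3 each). The differences were 0.04, -0.12 and -0.16 for the 3 comparisons, each smaller in size than the pooled SD within groups of 0.167, and the groups overlapped in all 3. Single libraries decided their size. The first was -0.04 without wild-type library 3 or Tfap2a+/- library 2 and 0.11 without library 1 of either group. The second was -0.05 without wild-type library 1, -0.21 without wild-type library 3, and -0.04 and -0.23 without libraries 1 and 3 labelled Tfap2b+/-. The last was -0.08 without Tfap2a+/- library 2 or library 1 labelled Tfap2b+/-, and -0.27 without library 3 of that label. Both the lowest and the third-highest ratio belonged to libraries labelled Tfap2b+/-.

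**Figure D5:**
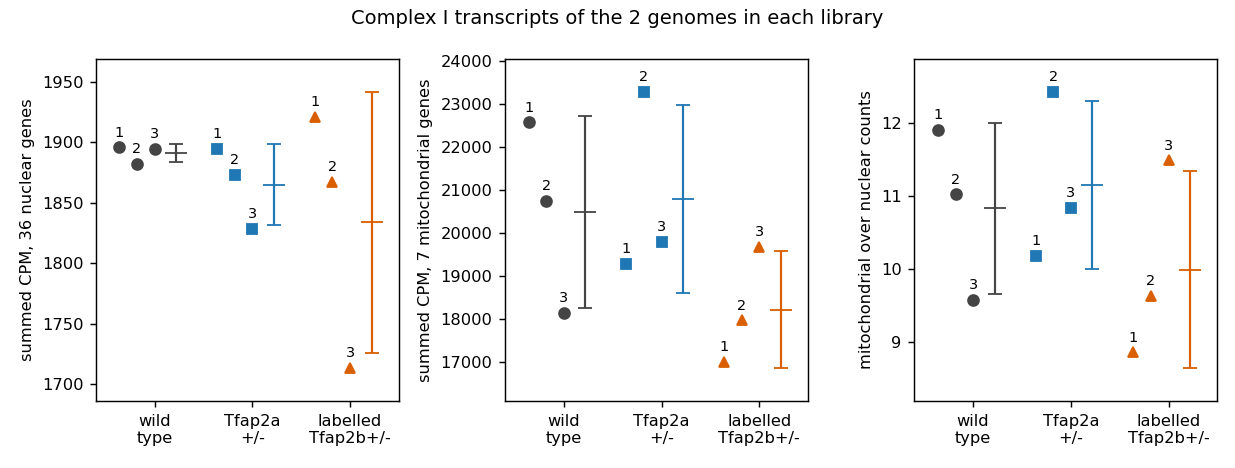
Summed CPM of the 36 nuclear genes, summed CPM of the 7 mitochondrial genes, and the ratio of their counts, 1 point per library with its number, and the mean ± SD of each group beside it; the vertical axes do not start at 0. The 3 groups overlap in all 3 panels, and library 3 labelled Tfap2b+/- is lowest in the nuclear sum at 1713 CPM.

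Other respiratory complexes with subunits from both genomes gave ratios with a similar order of libraries. The log2 ratio of mt-Cytb to the summed nuclear subunits of complex III was lowest at 3.05 in library 1 labelled Tfap2b+/- and highest at 3.6 in Tfap2a+/- library 2, the same 2 libraries that were lowest and highest for complex I. For mt-Co1 over nuclear complex IV it ran from 3.51 in library 2 labelled Tfap2b+/- to 3.82 in wild-type library 1. The 3 genes outside the members whose log2 CPM was most like the summed mitochondrial members were mt-Cytb (Pearson r = 0.977), mt-Co1 (r = 0.952) and Tubb5 (r = 0.940), over 9 libraries and among 9977 genes. These correlations share libraries and library scaling and carry no test.

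The nuclear members varied less between libraries than most genes. Over the 9 libraries their SD of log2 CPM had a median of 0.09, from 0.05 (Ndufa12) to 0.27 (Ndufb2), and 35 of 36 lay below 0.15, the median of 8085 other genes in the same range of levels. Nuclear subunits of other complexes lay in a similar range, so this was not particular to complex I. Their SDs ran from 0.05 (Sdhb) to 0.12 (Sdha) in complex II and from 0.05 (Uqcrc2) to 0.15 (Uqcr11) in complex III. In complex IV they ran from 0.05 (Cox5b) to 0.16 (Cox8a). The 5 tested mitochondrial members had a median SD of 0.14, beside 0.18 for 590 other genes in their range of levels. Library 3 labelled Tfap2b+/- was the lowest of the 9 for 21 of the 36 nuclear members, with a median deviation of -0.13 from the 9-library mean on the log2 scale. Library 1 of the same label was the highest for 9 of them. In the nuclear sum libraries 1 and 3 of that label lay at opposite ends, at 1921 and 1713 CPM. By the median deviation they did not, as that of library 1 was 0.024, below each wild-type library (0.028 to 0.045). Library 1 was also the lowest for 3 members. Without library 3 the nuclear median log2 fold of the group against wild type was -0.03 in place of -0.06, and the mitochondrial one -0.20 in place of -0.18.

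Other measures moved with the labels. Fragments assigned to no gene on the strand counted, which need not lie outside genes, made up 7.30% to 8.86% in wild type. In the libraries labelled Tfap2b+/- they made up 11.1% to 11.8%. All 5 nuclear noncoding RNAs examined were higher on average there, 3 of them at an unadjusted p under 0.05, and their sum was 4121 to 5739 CPM against 2127 to 3557 CPM in wild type and 2968 to 3753 CPM in Tfap2a+/-. Neuron markers were lower on average for 9 of 10, with sums of 7824 to 10148 CPM against 10212 to 11254 CPM in wild type. The groups overlapped for each of these 10 markers, and none had an unadjusted p under 0.05. Microglia markers were lower on average than in wild type for 6 of 6, none at an unadjusted p under 0.05. Their sums were 165, 249 and 248 CPM against 228 to 262 CPM in wild type, so library 1 alone lay below the wild-type range. Against Tfap2a+/- all 6 were lower as well (median log2 fold -0.33). There 2 of them (33.3%) had an unadjusted p under 0.05, against 11.5% of all genes. In Tfap2a+/- the striatal markers were higher on average than in wild type for 6 of 6, with overlapping sums (median log2 fold 2.10, 4 at an unadjusted p under 0.05). The same 6 were lower in the libraries labelled Tfap2b+/- than in Tfap2a+/- (median -2.01, all 6 at an unadjusted p under 0.05). Their sums were 368 to 1201 CPM in Tfap2a+/-, 118 to 477 CPM in wild type and 78.8 to 309 CPM in the libraries labelled Tfap2b+/-. Oligodendrocyte markers were lower on average in Tfap2a+/- than in wild type for 6 of 6 (median -0.46), none at an unadjusted p under 0.05. These values stand beside those of Ndufs4, Ndufa6, Ppargc1a and the direct comparison of both heterozygotes. The part of these measures in the values of the complex I members was not tested.

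Genes that build or regulate the complex were examined from lists drawn up for the pathway. None of the 18 assembly factors, which fit the subunits together, was called in any comparison, and their median log2 folds were -0.01, 0.00 and -0.03. Ndufaf1, an early membrane-arm assembly factor, was at 18.3, 18.6 and 18.8 CPM in Tfap2a+/- against 15.5, 16.5 and 14.1 CPM in those labelled Tfap2b+/- (log2 fold -0.27 ± 0.09, unadjusted p = 0.0158, edgeR adjusted p = 0.378). Tmem70, which also serves ATP synthase, had the smallest p of the list in both comparisons with wild type (unadjusted p = 0.130 and 0.0510).

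Among 9 regulators of respiratory genes, Ppargc1a, a coactivator that raises mitochondrial gene expression, stood out. It was at 76.7, 86.1 and 85.3 CPM in wild type, then 68.2, 59.9 and 72.8 CPM in Tfap2a+/-, with 95.5, 85.5 and 76.7 CPM in those labelled Tfap2b+/-. All Tfap2a+/- libraries were below all others (log2 fold -0.30 ± 0.11 against wild type, unadjusted p = 0.0185, edgeR adjusted p = 0.999), and it was not called. Between the heterozygous groups Ppargc1a had a smaller p (unadjusted p = 0.00806, edgeR adjusted p = 0.363) and was not called either. Of 17 genes that copy, transcribe or process the mitochondrial genome, none was called. Hsd17b10, a subunit of mitochondrial RNase P, was at 16, 20.7 and 16.7 CPM in wild type against 12.2, 14.3 and 12.2 CPM in those labelled Tfap2b+/- (log2 fold -0.46 ± 0.13, unadjusted p = 0.00727, edgeR adjusted p = 0.366).

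None of the nuclear subunits of the other complexes was called in any comparison. In the libraries labelled Tfap2b+/- complex IV had 10 of 10 genes below 0 at a median log2 fold of -0.10 against wild type, ATP synthase 16 of 17 at -0.08, complex III 8 of 9 at -0.07 and complex II, which has no mitochondrially encoded subunit, 4 of 4 at -0.04, where 50.3% of all genes lay below 0. Differences between these lists were not tested, and with plain library totals the median of all genes moves up to 0.07, a shift about as large as these medians. In Tfap2a+/- against wild type the medians were 0.00, -0.03, -0.03 and -0.06 in the same order. Usmg5, a small ATP synthase subunit, was at 64.8, 61.2 and 62.8 CPM in wild type, then 57.8, 59.1 and 57.8 CPM in Tfap2a+/-, with 52.4, 53.4 and 54.0 CPM in those labelled Tfap2b+/-. Its 3 groups did not overlap, and its log2 fold of -0.24 ± 0.06 in the last group had an edgeR adjusted p of 0.320 (unadjusted p = 0.00308). Cox7c at -0.17 and Uqcr11 at -0.24 had unadjusted p of 0.0379 and 0.0446.

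The promoters of the nuclear members were read for 2 sequence motifs known from respiratory genes. RefSeq windows from 250 bases before to 50 after the start (build GRCm38.p6) were found for 32 of the 36 members, 34 windows in all. GCGCATGCG, a form of the motif of NRF1, which activates many nuclear respiratory genes, occurred on either strand in 2 of these 34 windows (5.88%) and in 575 of all 32851 windows (1.75%), and 2 matches allow no firm contrast. CCGGAAG, the core bound by ETS factors such as GABP, occurred in 4 of them (11.8%) and in 8.86% of all. With 250 bases before the start alone, the shares were 5.88% and 1.45% for the first and 8.82% and 6.91% for the second. A longer or looser form of either motif was not searched, and a match is a description of letters only. The promoters of 2 members described above are printed with their matches in capitals, of which CGCATGCGC and CTTCCGG are the motifs read on the other strand.
Ndufa8 promoter, chr2:36049289-36049588, minus strand: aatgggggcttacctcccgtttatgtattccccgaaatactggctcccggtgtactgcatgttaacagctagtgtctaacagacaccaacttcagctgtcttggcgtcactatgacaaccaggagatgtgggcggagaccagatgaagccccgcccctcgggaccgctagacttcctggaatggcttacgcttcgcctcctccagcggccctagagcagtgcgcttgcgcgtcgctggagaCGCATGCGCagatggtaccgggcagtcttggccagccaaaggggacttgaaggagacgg
Ndufs3 promoter, chr2:90904672-90904971, minus strand: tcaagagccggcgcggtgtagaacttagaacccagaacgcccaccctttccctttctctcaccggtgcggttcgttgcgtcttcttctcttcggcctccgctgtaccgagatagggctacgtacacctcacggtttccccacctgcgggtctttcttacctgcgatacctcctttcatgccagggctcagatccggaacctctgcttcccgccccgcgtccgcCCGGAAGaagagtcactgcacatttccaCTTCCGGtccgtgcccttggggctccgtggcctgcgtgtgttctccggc
Both the NRF1 motif of Ndufa8 and the pair of ETS motifs of Ndufs3 lie near the start. Ndufs3 was at 51.8, 49.3 and 51.9 CPM in wild type, then 53.6, 50.2 and 58.6 CPM in Tfap2a+/-, with 48.2, 50.1 and 47.6 CPM in those labelled Tfap2b+/-, a log2 fold of -0.15 ± 0.08 between the last 2 groups (unadjusted p = 0.0727, edgeR adjusted p = 0.467).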

How the data were processed

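The authors deposited raw counts per gene for each library in 3 strand columns. Per the submitters' processing notes, cutadapt 2.4, STAR 2.6.1d, build GRCm38.p6 and edgeR were used. Per the labels' protocols the kit marks strand, and the reverse-strand column held most gene counts and was used here; forward-strand counts were used only where stated. The 54446 identifiers were matched to GENCODE M21, ignoring versions (37 were not found).

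All 9 libraries were fitted with edgeR 4.0.16 (R 4.3.3): TMM scaling, filterByExpr, a quasi-likelihood test of genotype and Benjamini-Hochberg adjustment over 17355 genes at 0.05. CPM were scaled by TMM over the genes tested. The script was checked on simulated counts with known changes, all larger than any fold of a member here. That check does not cover folds as small as those of the members. DESeq2 1.42.0, other scalings, no filter, unstranded counts, leaving out libraries and the replicate number as a block were alternatives. Replicate numbers did not pair the libraries: same-numbered libraries deviated from their group means with correlations from -0.33 to 0.32.

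The members, lists and alternatives were chosen with earlier results of these data known. Genes were named by rule: the mitochondrial members, core subunits, members of smallest p or of highest and lowest level, neighbours of the rule, up to 2 genes of smallest p per other list, and the 3 genes most like the summed mitochondrial members. Members without overlap, and Gm28438, were named after their values were seen. Lengths by principal transcript and the bases of mt-Nd4 outside its copy were alternatives chosen after seeing the data. Depth limits single values through a floor of 3 counts, which covers counting error only. Of the core subunits, 1 enters the counts and sums but its own values are not reported here.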

Additional observations from a re-analysis of the deposited data

Results flagged for a closer look

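Counts appeared outside the main measurement in 2 places. The forward-strand column held at least 48122 counts at mt-Nd6 in every library, more than on the strand of the gene. The chromosome 1 copy Gm28438, which is no complex I gene, held at least 275 counts in every library, where its parent gene mt-Nd3 had at most 3.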

How the results depend on the processing

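No complex I member was called in any of the 3 comparisons under any alternative run, leaving out each library included. The number of genes called in all was 0 in each comparison and moved under some alternatives. The DESeq2 Wald test called 30, 175 and 221 genes (Tfap2a+/- against wild type, Tfap2b+/- against wild type, Tfap2b+/- against Tfap2a+/-). Without a filter on low counts 2 were called in the first and 7 in the third comparison. A further alternative left out number 2 of wild type and number 1 of each other group, chosen for choroid plexus or hindbrain markers. Library 1 labelled Tfap2b+/- had the lowest choroid plexus sum of all libraries, 18.9 CPM, and hindbrain markers are not given here. Without these 3 libraries 2 genes were called in the second comparison and 1 in the third. Leaving out each library in turn gave 0 to 3, 0 to 4 and 0 to 31, where 4 and 31 were called without library 3 labelled Tfap2b+/- and 3 without Tfap2a+/- library 2. With library totals the nuclear median was 0.0143 in the second comparison and 0.0273 in the third. The cause was not tested. With the replicate block, 0 genes and 0 members were called in each comparison. Members at an unadjusted p under 0.05 numbered 2 and 3 in the comparisons of Tfap2b+/- with wild type and with Tfap2a+/-. They were 1 and 1 with the replicate block or only the groups compared, 1 and 0 with no filter, 0 and 0 with library totals or the 3 libraries left out, 3 and 3 unstranded and 3 and 4 with DESeq2, and ran from 1 to 3 and 0 to 3 on leaving out each library. The nuclear median of Tfap2a+/- against wild type ran from -0.04 to 0.01 and the mitochondrial one from -0.04 to 0.09 on leaving out each library, so both change sign. With the same 3 libraries left out, the Tfap2b+/- values against wild type were -0.09 for the mitochondrial median and -0.02 for the log2 ratio. Without library 1 labelled Tfap2b+/- alone, these 2 values were -0.13 and -0.04. No median or ratio other than those under library totals moved by as much as 1 SD between libraries. Of 2214 fold values of single members under an alternative, 32 moved by at least 1 SD. mt-Nd3 and mt-Nd4l lay at or near the floor of 3 counts, and 97.8% and 98.7% of their 75-base stretches also occur in another gene.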
